A study of Mus musculus with 14 samples.

Results

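Tek, Tie1, Ptprb, Angpt1, Angpt2 and Angptl4 are the Tie receptors, a receptor phosphatase, the angiopoietin ligands and 1 angiopoietin-like gene. They were taken by symbol from the count table, which held 22430 genes. All 6 were found, and all 6 passed the minimum count needed for testing, as did 14269 genes in total. RNA came from the intima of the aorta, the innermost layer of the vessel, which is lined by endothelium, and all mice lacked apolipoprotein E (Apoe-/-), which makes them prone to atherosclerosis. In the ubiquitous progerin group (Apoe-/-LmnaG609G/G609G, 3 libraries), both Lmna copies carried the G609G allele, which leads to progerin, the shortened lamin A behind Hutchinson-Gilford progeria. Its control was the wild-type control (Apoe-/-Lmna+/+, 4 libraries). In the VSMC progerin group (Apoe-/-LmnaLCS/LCS SM22Cre, 3 libraries), Cre under the SM22α promoter, which is active in vascular smooth muscle cells (VSMC), turned on progerin in mice that otherwise make lamin C only. Its control was the lamin C-only control without Cre (Apoe-/-LmnaLCS/LCS, 4 libraries). Each library was a pool of 12 to 14 mice of 1 genotype, so p-values measure the spread between pools and not between single mice. The sources used here give neither the age nor the sex of the mice.

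Tek encodes Tie2, the endothelial receptor tyrosine kinase that binds angiopoietins. Angpt1, mostly made by cells around the endothelium, activates Tie2 and is known to keep vessels quiescent, whereas Angpt2, made by endothelial cells, is a context-dependent partial agonist or antagonist. Tie1 is a related receptor that binds no angiopoietin strongly and modulates Tie2, and Ptprb encodes VE-PTP, a receptor phosphatase that removes phosphate from Tie2. Active Tie2 signals through AKT, which keeps FOXO1 out of the nucleus, where FOXO1 would otherwise activate Angpt2. Angptl4 resembles the angiopoietins in sequence but does not bind Tie2, and its product inhibits lipoprotein lipase.

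Library totals ran from 27200000 to 35700000 estimated counts. Fewer genes were detected in wild-type control pool 1 (14328) than in the remaining wild-type pools (15188 to 15233). Without that pool the calls on the 6 genes in each progerin comparison kept their direction and side of the threshold, and the difference of the progerin effects on Angpt1 lost its call (edgeR adjusted p = 0.0551). Transcripts of the mitochondrial genome made up 7.29% to 8.22% of counts in ubiquitous progerin and 4.60% to 5.42% in the wild-type control. They made up 11.5% to 12.1% in VSMC progerin and 3.53% to 4.61% in the lamin C-only control. Summed endothelial markers (10 genes) were high in every group, at 20485 to 21469 CPM (counts scaled to a common library size) in ubiquitous progerin and 22270 to 23970 CPM in the wild-type control. They gave 20266 to 21400 CPM in VSMC progerin and 21367 to 23355 CPM in the lamin C-only control. The ubiquitous progerin range lay wholly below that of its control, and Pecam1 and Vwf made up most of the sum in every group. Summed macrophage markers (8 genes) lay at 961 to 1512 CPM in ubiquitous progerin against 74.2 to 151 CPM in the wild-type control, and at 716 to 867 CPM in VSMC progerin against 68.1 to 250 CPM in the lamin C-only control. All 8 passed the test upward in both comparisons. In bulk RNA, fewer cells of a type and less RNA per cell cannot be told apart, and the part of these shifts in the results below was not tested.

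Only Tek and Tie1 had an entry in the RefSeq promoter table (GRCm38.p6). Their upstream sequences are shown because the paired receptors moved apart in the data. The Tek sequence is the 250 bases before the gene, chr4:94739039-94739288 on the plus strand. The Tie1 sequence is chr4:118490062-118490099 on the minus strand, the 38 bases of its window that lie before the annotated gene. Capitals mark matches to GGAAG, the core of the sites bound by ETS factors, on either strand.
Tek: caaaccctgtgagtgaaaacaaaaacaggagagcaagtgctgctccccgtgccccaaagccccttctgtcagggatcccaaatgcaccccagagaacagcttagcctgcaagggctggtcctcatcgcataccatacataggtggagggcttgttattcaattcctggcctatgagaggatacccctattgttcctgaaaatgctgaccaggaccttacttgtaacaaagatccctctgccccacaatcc
Tie1: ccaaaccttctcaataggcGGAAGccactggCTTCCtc
The full 250-base window of Tie1 held 6 matches to GGAAG, and 0.344% of the 32851 windows in the table held at least as many. Those in capitals above lie before the annotated Tie1 gene, and the rest lie inside it. The Tek window, which lies wholly before its gene, held no match. GGAAG occurs in 64.1% of all windows. Neither window held GTAAACA, a FOXO motif found in 3.17% of windows, or TGANTCA, an AP-1 motif found in 6.75%, on either strand. Of all windows, 32.1% matched none of the 3 motifs. These matches describe letters in a window and are not evidence of binding.

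Per kilobase of exon, the receptors and phosphatase stood far above the ligands in every group. In the wild-type control the levels were 375 CPM per kilobase for Ptprb, 264 for Tek, 183 for Tie1, 8.61 for Angptl4, 1.88 for Angpt1 and 1.04 for Angpt2. The order of the 3 most abundant genes changed with genotype. In ubiquitous progerin Ptprb (281 CPM per kilobase) was followed by Tie1 (147) and then Tek (107). In VSMC progerin Tie1 (320) stood above Tek (224) and Ptprb (199). With the longest transcript as the length, Tek (226) and Ptprb (223) were within 1 SD of each other in that group, and the order in the wild-type control was the same (420 for Ptprb, 267 for Tek and 212 for Tie1). Angpt1 and Angpt2 changed places in ubiquitous progerin, at 0.711 ± 0.12 and 1.59 ± 0.19 CPM per kilobase. The lamin C-only control had the same order as the wild-type control, with Ptprb at 375, Tek at 263 and Tie1 at 182 CPM per kilobase.

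**Figure D1:**
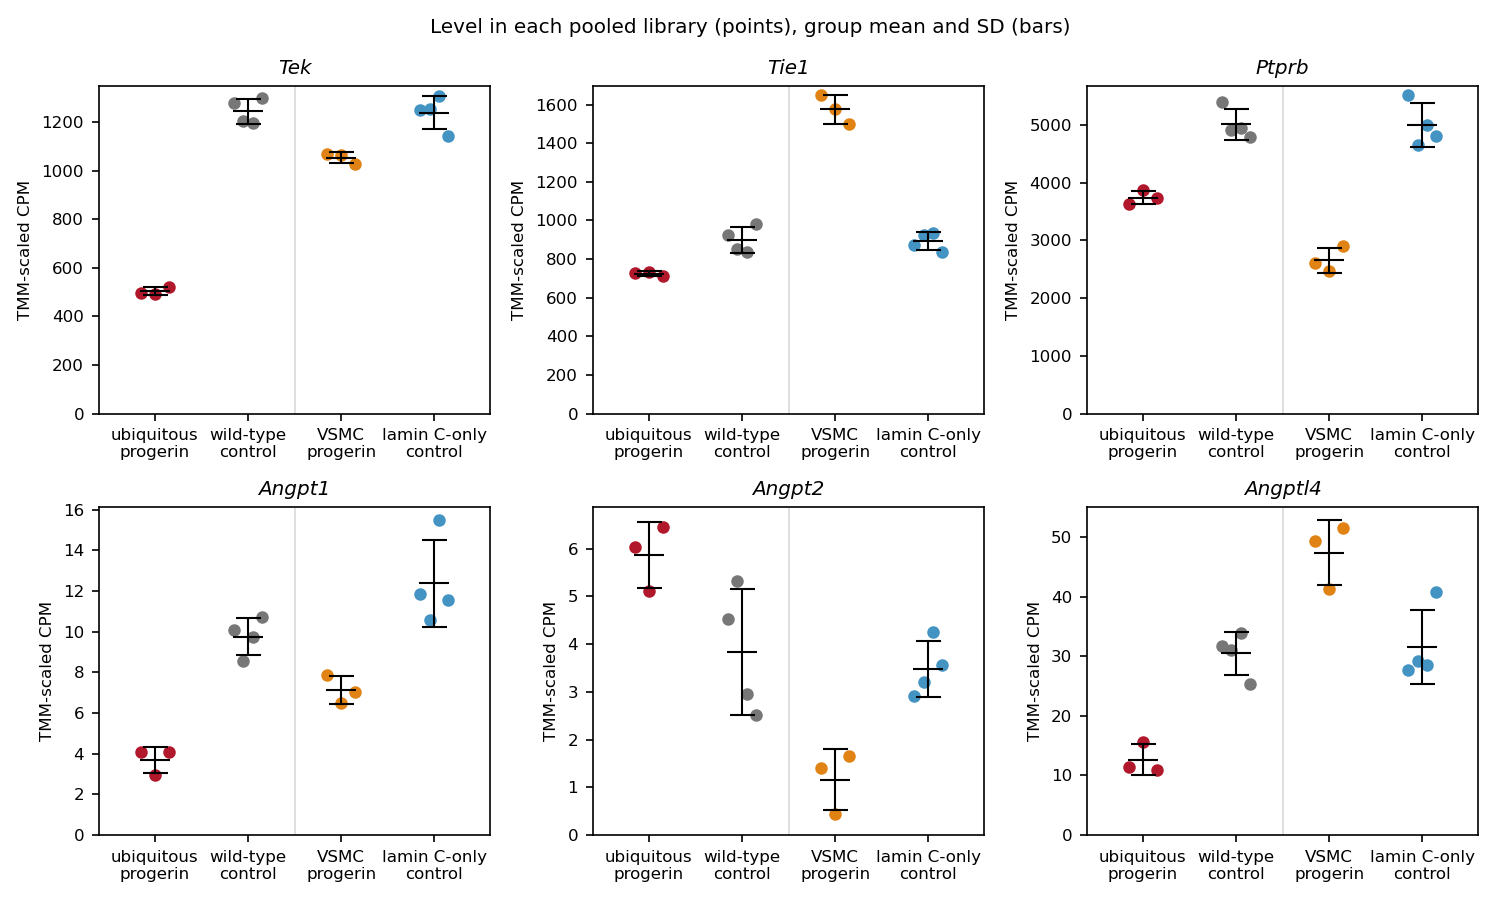
Level of each gene in TMM-scaled CPM (vertical axis, from 0) in the libraries of the 4 groups, each point a pool of mice and the bars the group mean and SD. Tek is low in ubiquitous progerin (492 to 522 CPM), Tie1 is high in VSMC progerin (1499 to 1649 CPM), and the control groups overlap for all 6 genes.

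The 6 genes took different courses in the progerin groups. In ubiquitous progerin 5 of the 6 passed the test downward and 0 upward, where 28.3% of all tested genes were lower and 26.3% higher (54.6% called in either direction). The ranges of 5 did not overlap, as for 56.4% of all genes. In VSMC progerin 2 passed upward and 4 downward, where 19.0% of all tested genes were higher and 23.0% lower (42.0% called). The ranges of all 6 did not overlap, as for 45.5% of all genes. The 0 upward calls in ubiquitous progerin were also 0 at an unadjusted p under 0.05, with DESeq2 and with limma. All p-values for single genes come from the quasi-likelihood test of edgeR, adjusted by Benjamini-Hochberg over the 14269 genes. The median log2 fold change of the 6 genes was -0.84 in ubiquitous progerin and -0.51 in VSMC progerin, against -0.00 and -0.03 for all genes tested. The plot of effects shows these values for each gene.

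**Figure D2:**
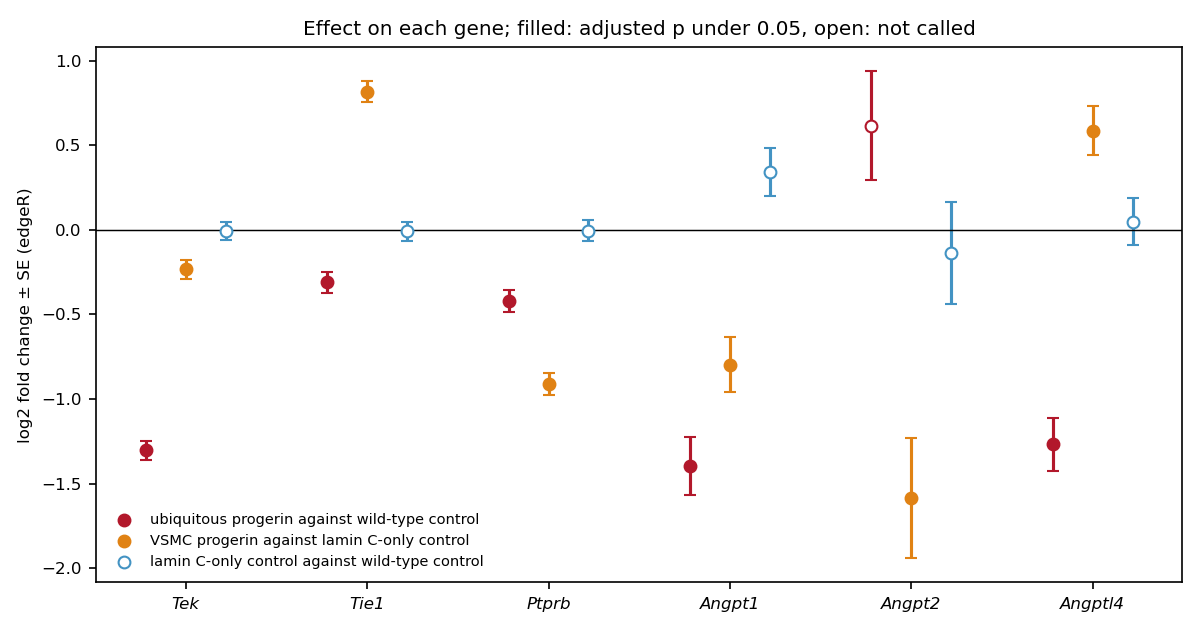
Log2 fold change (vertical axis) with its standard error from edgeR for each gene in 3 comparisons, filled where the adjusted p is under 0.05 and open where it is not. Tie1 (0.82) and Angptl4 (0.59) lie above 0 in VSMC progerin and below 0 in ubiquitous progerin (-0.31 and -1.27), and every point of the lamin C-only comparison is open.

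Tek (ENSMUSG00000006386, GRCm38 chromosome 4, 94739289 to 94874976, plus strand), the Tie2 gene, fell in both progerin groups, by far more in ubiquitous progerin. It had 496, 492 and 522 CPM in the 3 ubiquitous progerin pools, against 1279, 1203, 1194 and 1297 CPM in the wild-type control pools. Every ubiquitous progerin pool lay far below the lowest wild-type pool, and the groups did not overlap. The mean was 503 ± 16.2 CPM (SD, n = 3) against 1243 ± 52.3 (n = 4), a log2 fold change of -1.30 ± 0.06 (SE, adjusted p = 1.19e-12 by edgeR). In VSMC progerin Tek had 1069, 1063 and 1027 CPM, against 1249, 1252, 1307 and 1143 CPM in the lamin C-only control. These groups were close but did not overlap, and the log2 fold change was -0.23 ± 0.06 (adjusted p = 0.00198).

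Tie1 (ENSMUSG00000033191, chromosome 4, 118471191 to 118490061, minus strand), which modulates Tie2, moved in opposite directions in the progerin groups. It had 730, 734 and 712 CPM in ubiquitous progerin, against 924, 854, 836 and 981 CPM in the wild-type control. The groups did not overlap, and the log2 fold change was -0.31 ± 0.06 (edgeR adjusted p = 0.000251). In VSMC progerin it had 1649, 1576 and 1499 CPM, against 875, 923, 937 and 839 CPM in the lamin C-only control. Every VSMC progerin pool lay above every other library of the series, and the log2 fold change was 0.82 ± 0.06 (adjusted p = 1.71e-09). Lymphatic endothelium also expresses Tie1, and the summed markers of that cell type lay at 96.3 to 112 CPM in ubiquitous progerin against 73.8 to 80.7 CPM in the wild-type control. They lay at 139 to 153 CPM in VSMC progerin against 76.7 to 89.7 CPM in the lamin C-only control, and their part in the Tie1 result was not tested. In ubiquitous progerin 2 of the 6 rose, and most of the higher sum came from Lyve1 (32.4 CPM against 8.68 CPM in the wild-type control), a gene that macrophages also express, while Flt4 had 68.2 CPM against 68.6 CPM. In VSMC progerin 3 of the 6 rose, and Flt4 had 123 CPM against 70.7 CPM in the lamin C-only control. Prox1 (0.197 CPM against 0.407 CPM) and Reln (0.113 CPM against 0.222 CPM) had lower means there and were not called. Flt4 alone made up most of the summed lymphatic markers in every group.

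The ratio of Tie1 to Tek was higher in both progerin groups than in their controls. The log2 ratio of Tie1 to Tek CPM within a library was 0.53 ± 0.07 in ubiquitous progerin (SD, n = 3) and -0.47 ± 0.05 in the wild-type control (n = 4), a difference of 1.00. It was 0.58 ± 0.04 in VSMC progerin and -0.47 ± 0.03 in the lamin C-only control, a difference of 1.05. Per kilobase, all 6 progerin pools had more Tie1 than Tek, and all 8 control pools had less. In ubiquitous progerin Tek fell more than Tie1, and in VSMC progerin Tie1 rose while Tek fell slightly. The exact permutation test, two-sided, gave p = 0.0286 for each difference, the smallest p that 3 against 4 pools allow. After Benjamini-Hochberg adjustment over 30 such tests it was 0.0571, so no ratio passed, and the smallest possible raw p was reached in each.

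**Figure D3:**
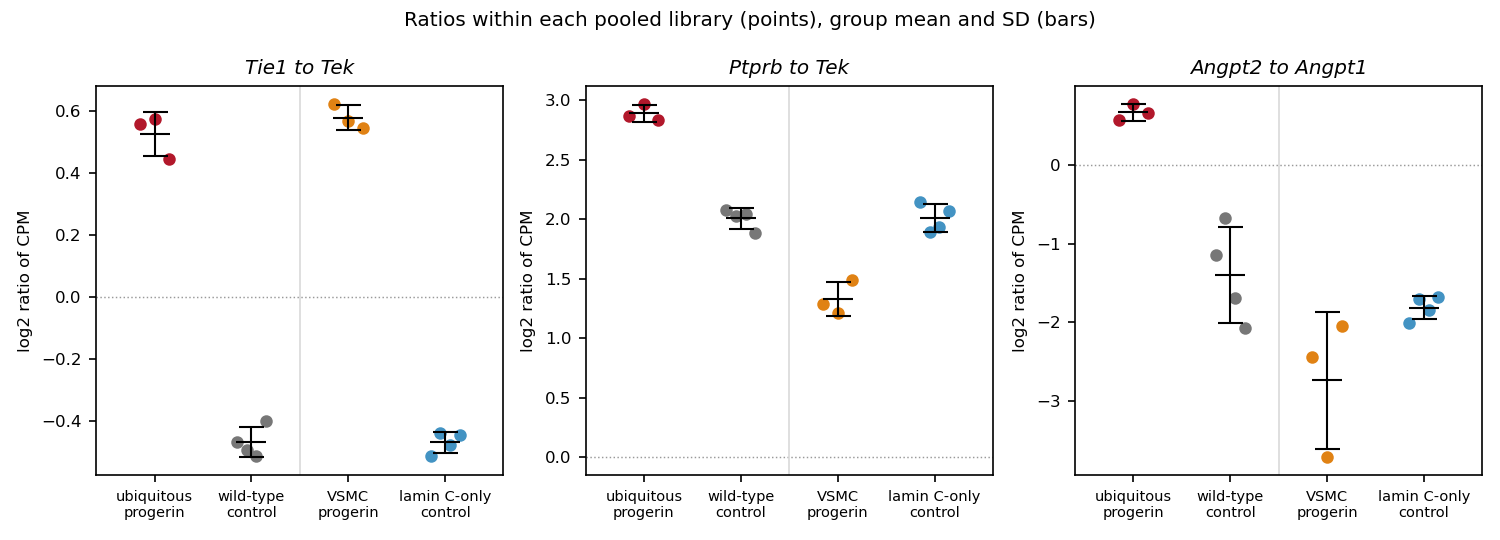
Log2 ratios of CPM within each library (vertical axes) for Tie1 to Tek, Ptprb to Tek and Angpt2 to Angpt1 in the 4 groups, with points for pools and bars for mean and SD. The Tie1 to Tek ratio is above 0 in both progerin groups and below 0 in both control groups, whereas the Ptprb to Tek ratio is 2.89 in ubiquitous progerin, above its control at 2.01, and 1.33 in VSMC progerin, below its control at 2.01.

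Ptprb (ENSMUSG00000020154, chromosome 10, 116275523 to 116389535, plus strand), the VE-PTP gene, fell in both progerin groups, and more in VSMC progerin. It had 3627, 3866 and 3728 CPM in ubiquitous progerin, against 5396, 4905, 4939 and 4785 CPM in the wild-type control. The groups did not overlap, and the log2 fold change was -0.42 ± 0.07 (edgeR adjusted p = 1.92e-05). In VSMC progerin it had 2610, 2464 and 2893 CPM, against 5518, 4652, 4993 and 4811 CPM in the lamin C-only control, again without overlap. The log2 fold change was -0.91 ± 0.07 (adjusted p = 1.52e-09). Relative to Tek, its substrate's gene, Ptprb was higher by 0.88 on the log2 scale in ubiquitous progerin (2.89 ± 0.07 against 2.01 ± 0.09 in the wild-type control). It was lower in VSMC progerin, with a log2 ratio of 1.33 ± 0.15 against 2.01 ± 0.12 in the lamin C-only control (difference -0.68). Both exact permutation tests gave p = 0.0286, adjusted 0.0571.

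Angpt1 (ENSMUSG00000022309, chromosome 15, 42424723 to 42676977, minus strand), the activating ligand, was low in all libraries and fell in both progerin groups. It had 4.06, 2.97 and 4.08 CPM in ubiquitous progerin, against 10.1, 8.55, 9.73 and 10.7 CPM in the wild-type control. The ranges did not overlap, and the log2 fold change was -1.40 ± 0.17 (edgeR adjusted p = 7.75e-07). In VSMC progerin it had 7.86, 6.50 and 7.03 CPM, against 11.9, 10.6, 15.5 and 11.6 CPM in the lamin C-only control. The groups were again separate, and the log2 fold change was -0.80 ± 0.16 (adjusted p = 0.000458). Exons of Angpt1 share 737 bases with Gm17473 on the other strand, which was not analysed here, and the sources used here do not say how strand was treated in counting. Perivascular cells are a known source of Angpt1, and summed pericyte markers lay at 5.22 to 11.4 CPM in ubiquitous progerin against 5.86 to 25.6 CPM in the wild-type control. Those markers lay at 14.7 to 18.4 CPM in VSMC progerin and 6.87 to 10.5 CPM in the lamin C-only control. Of the 5 pericyte markers, 2 fell in ubiquitous progerin (Notch3 and Cspg4) and 1 rose in VSMC progerin (Abcc9). Rgs5 had 7.33 CPM in VSMC progerin against 1.69 CPM in the lamin C-only control and was not called. Summed smooth muscle markers were 936 to 983 CPM in ubiquitous progerin against 492 to 830 CPM in the wild-type control, and 319 to 383 CPM in VSMC progerin against 398 to 561 CPM in the lamin C-only control. The higher sum in ubiquitous progerin came from Tagln (774 CPM against 258 CPM in the wild-type control), the 1 smooth muscle marker of 8 that rose, while 3 fell, among them Acta2 (log2 fold change -1.20) and Myh11 (-1.32). In VSMC progerin 0 of the 8 rose by edgeR (1 at its unadjusted p under 0.05, and 1 each by DESeq2 and limma), and 3 fell. Platelets also carry Angpt1, and summed platelet markers lay at 39.6 to 45.2 CPM in ubiquitous progerin against 17.5 to 24.0 CPM in the wild-type control. They lay at 25.5 to 56.8 CPM in VSMC progerin against 18.5 to 28.9 CPM in the lamin C-only control. The higher sum in ubiquitous progerin came from Itga2b (18.7 CPM against 5.19 CPM in the wild-type control) and Pf4 (14.5 CPM against 2.08 CPM). These were the 2 platelet markers of 5 that rose, and the median log2 fold change of the 5 was -0.34. There 0 fell by edgeR (1 at its unadjusted p under 0.05). In VSMC progerin 2 of the 5 rose, with a median of 0.88. The part of these cell types in the Angpt1 results was not tested.

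Angpt2 (ENSMUSG00000031465, chromosome 8, 18690263 to 18741562, minus strand), the context-dependent ligand, fell in VSMC progerin. It had 1.40, 0.437 and 1.65 CPM there, against 2.91, 3.20, 4.26 and 3.55 CPM in the lamin C-only control. The VSMC progerin values rest on 38, 14 and 52 estimated counts, and every one lay below the lowest lamin C-only pool. The log2 fold change was -1.58 ± 0.36 (edgeR adjusted p = 0.00126), and it was -1.19 (adjusted p = 0.0062) without VSMC progerin pool 2, the lowest. In ubiquitous progerin Angpt2 had 6.04, 5.12 and 6.46 CPM, against 4.54, 5.32, 2.96 and 2.51 CPM in the wild-type control. These ranges overlapped, and the log2 fold change of 0.62 ± 0.32 did not pass the test (adjusted p = 0.112). It passed at an adjusted p of 0.0446 when VSMC progerin pool 2, which is not in that comparison but shares the estimate of spread, was left out. Angpt2 lies inside Mcph1 on the opposite strand with no shared exon bases, and Mcph1 itself had a log2 fold change of 0.57 (adjusted p = 0.0259) in ubiquitous progerin and 0.09 (adjusted p = 0.772) in VSMC progerin.

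The log2 ratio of Angpt2 to Angpt1 was 0.66 ± 0.10 in ubiquitous progerin and -1.39 ± 0.61 in the wild-type control (difference 2.06). Per kilobase, all 3 ubiquitous progerin pools had more Angpt2 than Angpt1, and none of the other libraries did. The ratio was -2.73 ± 0.87 in VSMC progerin and -1.81 ± 0.15 in the lamin C-only control (difference -0.92). Both exact permutation tests gave p = 0.0286, adjusted 0.0571.

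Angptl4 (ENSMUSG00000002289, chromosome 17, 33773750 to 33781830, minus strand), the lipase inhibitor, moved in opposite directions in the progerin groups. It had 11.4, 15.6 and 10.9 CPM in ubiquitous progerin, against 31.6, 31.0, 33.9 and 25.4 CPM in the wild-type control. The groups did not overlap, and the log2 fold change was -1.27 ± 0.16 (edgeR adjusted p = 4.66e-06). In VSMC progerin it had 49.3, 41.2 and 51.6 CPM, against 27.7, 29.2, 28.5 and 40.7 CPM in the lamin C-only control. The gap between the groups was narrow because lamin C-only pool 4 stood above the other 3. The log2 fold change was 0.59 ± 0.15 (adjusted p = 0.00412) and 0.73 without that pool (adjusted p = 0.000109). Adipocytes express Angptl4, and summed adipocyte markers lay at 115 to 276 CPM in ubiquitous progerin against 60.1 to 89.6 CPM in the wild-type control. They lay at 498 to 615 CPM in VSMC progerin against 50.4 to 338 CPM in the lamin C-only control, where pool 4 had the 338. Of the 6 adipocyte markers, 1 was higher in ubiquitous progerin and 5 in VSMC progerin, and their part in the Angptl4 results was not tested.

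The progerin effects were then compared with each other, each against its own control. The difference, ubiquitous minus VSMC progerin effect, passed the test for all 6 genes, 2 upward and 4 downward, where 44.2% of all tested genes passed (22.4% upward and 21.8% downward). It was -1.07 ± 0.08 for Tek (edgeR adjusted p = 1.58e-09), -1.13 ± 0.09 for Tie1 (3.31e-09) and 0.49 ± 0.09 for Ptprb (0.000218). Tek thus fell more in ubiquitous progerin and Ptprb fell more in VSMC progerin. It was 2.20 ± 0.48 for Angpt2 (0.000822) and -1.85 ± 0.21 for Angptl4 (3.4e-06). For Angpt1 it was -0.60 ± 0.23 (0.0395), a call that was lost in 10 of 20 alternative settings with adjusted p between 0.0541 and 0.127.

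Endothelial marker levels were then taken into account within each library. The index, the mean log2 CPM of 10 endothelial markers that hold none of the 6 genes, was 9.24 ± 0.01 in ubiquitous progerin and 9.25 ± 0.04 in the wild-type control. It was 9.15 ± 0.06 in VSMC progerin and 9.25 ± 0.05 in the lamin C-only control. The differences of -0.01 and -0.10 gave p = 0.771 and p = 0.114 by the exact permutation test, two-sided. The index weighs all 10 markers equally, unlike the summed CPM, which was lower in ubiquitous progerin than in its control. Single markers did move, with 4 higher and 5 lower of 10 in ubiquitous progerin and 3 higher and 5 lower in VSMC progerin. Relative to the index, Tek differed by -1.29 in ubiquitous progerin and by -0.13 in VSMC progerin, where the groups overlapped (p = 0.114, exact permutation test). Tie1 differed by -0.30 and 0.92 in the same comparisons, and Ptprb by -0.41 and -0.81. Angpt1 differed by -1.38 and -0.68, Angpt2 by 0.68 and -1.60, and Angptl4 by -1.26 and 0.70. By the exact permutation test, 9 of these 12 differences reached the smallest p possible (0.0286, adjusted 0.0571), 2 gave p = 0.0571 (Angpt2 in ubiquitous progerin and Angptl4 in VSMC progerin, adjusted 0.0952), and none passed after adjustment. The choice of markers mattered for the smaller effects. With Pecam1 and Cdh5 as the only markers, Tie1 differed by -0.02 and Ptprb by -0.13 in ubiquitous progerin, and Tek by -0.04 in VSMC progerin. With those markers Tek still differed by -1.02 in ubiquitous progerin, and in VSMC progerin Tie1 differed by 1.01 and Ptprb by -0.72. The plot of levels relative to the index shows that Tek in ubiquitous progerin and Tie1 in VSMC progerin stood apart from all other libraries.

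**Figure D4:**
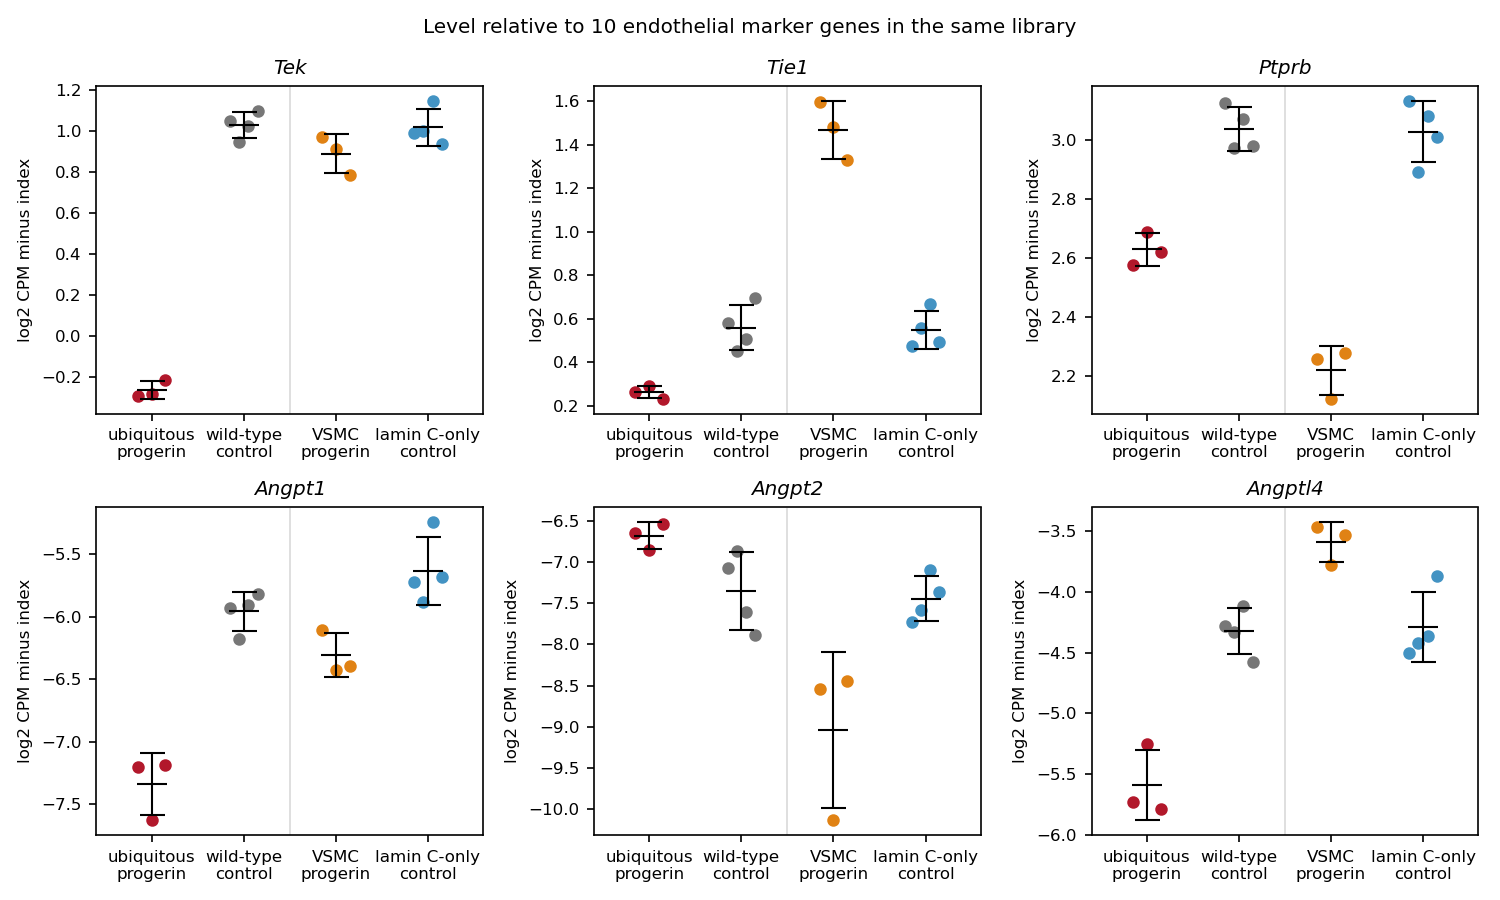
Log2 CPM of each gene minus the mean log2 CPM of 10 endothelial markers in the same library (vertical axes, which do not start at 0), with points for pools and bars for mean and SD. Relative to the index Tek is lower by 1.29 in ubiquitous progerin than in the wild-type control, and Tie1 is higher by 0.92 in VSMC progerin than in the lamin C-only control.

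The lamin C-only control was compared with the wild-type control to ask whether making lamin C only changes the intima. None of the 6 genes was called, where 0.175% of all tested genes were (0.0911% higher and 0.0841% lower), and none had separate ranges, where 4.99% did. At an unadjusted p under 0.05 there was 1, Angpt1, and DESeq2 and limma called 0. Tek, Tie1 and Ptprb had log2 fold changes of -0.01 ± 0.05, -0.01 ± 0.06 and -0.00 ± 0.06. Angpt1 had 0.34 ± 0.14 (edgeR adjusted p = 0.606), Angpt2 -0.14 ± 0.30 and Angptl4 0.05 ± 0.14. This comparison uses the control libraries of both progerin comparisons.

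Genes with the most similar profile were named by the root mean square difference of log2 CPM, centred per gene, over the 14 libraries, from 10480 genes with a mean log2 CPM of 2 or more (10481 for Angpt2). For Tek they were Dmtn (0.0691), Erap1 (0.0852) and Chtf8 (0.0976). For Tie1 they were Fmnl3 (0.0910), Plod1 (0.0953) and St3gal4 (0.0966), and for Ptprb Ptpn14 (0.0764), Lamb2 (0.0863) and Map3k1 (0.0893). The low-count ligands had looser matches, with Nuak1 at 0.173 for Angpt1 and Abi3bp at 0.380 for Angpt2. For Angptl4 the closest was Endod1 (0.204). Among the 6 genes themselves the closest pair was Tek and Angpt1, at 0.252.

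Other genes of the pathway were counted in 6 lists, shown in the plot of pathway genes. The counts stand against 54.6% of all tested genes called in ubiquitous progerin and 42.0% in VSMC progerin. In ubiquitous progerin the share called was 40.0% of the angiopoietin-like genes, 58.8% of the Tie2 adaptors and effectors, 62.5% of the FOXO axis, 72.7% of the Angptl4 and lipase genes, 77.8% of the ETS and related regulators and 100% of the Tie partner and shedding genes. In VSMC progerin it was 35.3% of the Tie2 adaptors and effectors, 54.5% of the Angptl4 and lipase genes, 60.0% of the angiopoietin-like and of the Tie partner and shedding genes, 66.7% of the ETS and related regulators and 100% of the FOXO axis. These lists hold 5 to 17 tested genes, and a share near that of all genes is no result about a list. Between the control groups 0 genes of any list were called by edgeR, DESeq2 or limma, and at an unadjusted p under 0.05 each list had 0 to 2. Of 5 tested angiopoietin-like genes, 0 rose and 2 fell in ubiquitous progerin (0 rose also by DESeq2, limma and edgeR's unadjusted p), and 2 rose and 1 fell in VSMC progerin. Angptl2, a secreted glycoprotein linked to vascular inflammation, averaged 12.9 ± 2.43 CPM in ubiquitous progerin and 40.2 ± 2.91 CPM in the wild-type control (log2 fold change -1.64 ± 0.11). In VSMC progerin it averaged 67.9 ± 5.31 CPM, against 36.1 ± 3.20 CPM in the lamin C-only control (0.91 ± 0.10). Angptl2 and Angptl4 thus moved down in ubiquitous progerin and up in VSMC progerin. Angptl7 fell in both (-2.58 ± 0.50 and -2.13 ± 0.48).

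**Figure D5:**
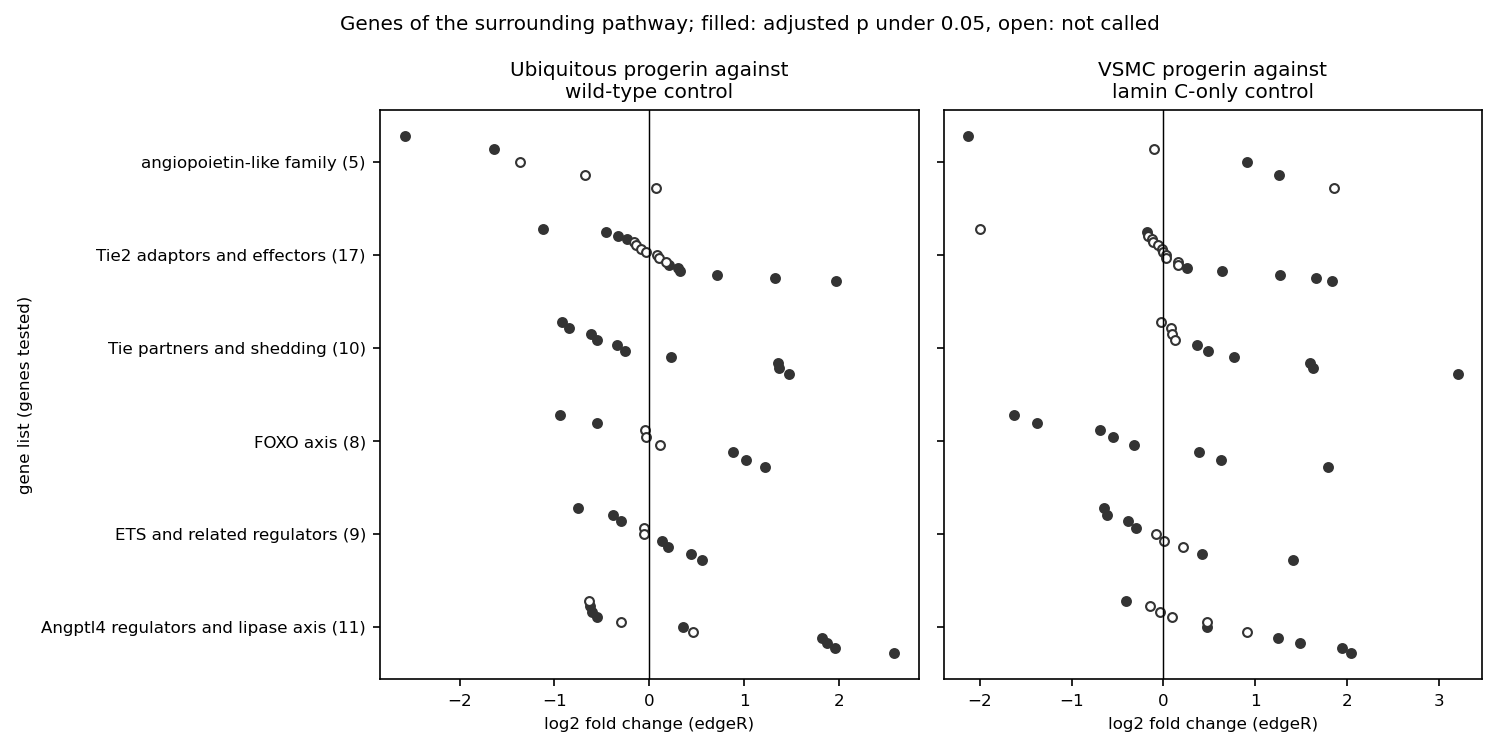
Log2 fold change (horizontal axis) of every tested gene in 6 pathway lists, one point per gene, for ubiquitous progerin (left panel) and VSMC progerin (right panel) against their controls, filled where the adjusted p is under 0.05. The Tie partner and shedding list has 4 filled points above 0 and 6 below in ubiquitous progerin, and 6 above and 0 below in VSMC progerin.

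Of 17 Tie2 adaptors and effectors, 6 rose and 4 fell in ubiquitous progerin, with a median log2 fold change of 0.08, and 5 rose and 1 fell in VSMC progerin, with a median of 0.03. Dok2, an adaptor that binds phosphorylated Tie2 and is also expressed in myeloid cells, rose in ubiquitous progerin (9.01 ± 2.89 CPM against 2.30 ± 0.29 in the wild-type control) and in VSMC progerin (8.30 ± 0.59 CPM against 2.31 ± 0.30 in the lamin C-only control). Macrophage markers rose with it, and their part was not tested. Nck1, another adaptor, fell in ubiquitous progerin (log2 fold change -1.12 ± 0.09), and Pik3r1, a regulatory subunit of PI3-kinase, rose (0.72 ± 0.08). In VSMC progerin Iqgap1, a scaffold protein, rose (0.63 ± 0.08).

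Of 10 tested genes for Tie partners and receptor shedding, 4 rose and 6 fell in ubiquitous progerin. In VSMC progerin 6 rose and 0 fell by edgeR, and the number that fell was also 0 by DESeq2, limma and edgeR's unadjusted p. Mmp14, a membrane metalloproteinase that can shed Tie2, rose in both (1.36 ± 0.09 and 1.63 ± 0.09). Adam10, a sheddase, fell in ubiquitous progerin (-0.92 ± 0.07), as did Itgb1 (-0.55 ± 0.05) and Cdh5, which encodes VE-cadherin, a partner of VE-PTP and also 1 of the endothelial markers (-0.62 ± 0.06). Svep1, an extracellular matrix protein reported to bind Tie1, averaged 10.1 ± 1.48 CPM in VSMC progerin and 1.10 ± 0.54 CPM in the lamin C-only control (3.21 ± 0.39). It also rose in ubiquitous progerin, with 3.55 ± 1.51 CPM against 1.27 ± 0.60 CPM in the wild-type control (1.48 ± 0.38). Summed fibroblast markers lay at 342 to 391 CPM in ubiquitous progerin against 414 to 450 CPM in the wild-type control. In VSMC progerin they lay at 1210 to 1421 CPM against 370 to 617 CPM in the lamin C-only control. The lower sum in ubiquitous progerin came from Pi16 (59.0 CPM against 207 CPM in the wild-type control), the 1 marker of 6 that fell. There 0 rose by edgeR (1 with the pool number as a replicate block), and the median log2 fold change of the 6 was 0.37. In VSMC progerin 4 of the 6 rose. The part of fibroblasts in these results was not tested.

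Of 8 tested genes of the FOXO axis, 3 rose and 2 fell in ubiquitous progerin, and 3 rose and 5 fell in VSMC progerin. Foxo1 itself was not called in ubiquitous progerin (log2 fold change 0.12 ± 0.06, edgeR adjusted p = 0.119). It fell in VSMC progerin (-0.32 ± 0.06, adjusted p = 0.000357). Foxo3, a FOXO factor, rose in ubiquitous progerin (141 ± 13.8 CPM against 76.5 ± 7.25 in the wild-type control) and fell in VSMC progerin (46.8 ± 5.69 CPM against 75.9 ± 8.22 in the lamin C-only control). Nos3, endothelial nitric oxide synthase, moved the other way (-0.55 ± 0.07 and 0.39 ± 0.07). Klf2, a flow-responsive factor, also fell in ubiquitous progerin (-0.94 ± 0.17) and rose in VSMC progerin (0.63 ± 0.16), and Cited2 fell in VSMC progerin (-1.63 ± 0.09). Of 9 ETS and related regulators, 4 rose and 3 fell in ubiquitous progerin, and 2 rose and 4 fell in VSMC progerin. The 4 that rose in ubiquitous progerin were 2 without ubiquitous progerin pool 2. Ets1 rose in both (0.44 ± 0.10 and 1.41 ± 0.09). Elk3 fell in ubiquitous progerin (-0.75 ± 0.06) and rose in VSMC progerin (0.42 ± 0.06), while Gata2 did the opposite (0.55 ± 0.07 and -0.62 ± 0.07).

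Of 11 tested genes around Angptl4 and lipase, 5 rose and 3 fell in ubiquitous progerin, and 5 rose and 1 fell in VSMC progerin. In VSMC progerin 3 rose when only the groups compared were in the fit, and 2 fell without lamin C-only pool 4. Lpl, lipoprotein lipase, rose in both, with 255 ± 20.1 CPM in ubiquitous progerin against 65.6 ± 7.23 CPM in the wild-type control, and 303 ± 42.3 CPM in VSMC progerin against 78.8 ± 15.9 CPM in the lamin C-only control. Lpl is made by macrophages and adipocytes, and the part of those cell types, whose marker levels are given above, was not tested. Hif1a, a hypoxia-responsive factor that can activate Angptl4, fell in ubiquitous progerin (-0.55 ± 0.06) and rose in VSMC progerin (0.48 ± 0.06), the same directions as Angptl4. Epas1, its relative, fell in both (-0.62 ± 0.06 and -0.41 ± 0.06). Pparg, also in this list, rose in both (1.88 ± 0.47 and 1.25 ± 0.45), which is opposite to Angptl4 in ubiquitous progerin. In ubiquitous progerin Ppard rose (0.36 ± 0.10), also opposite to Angptl4, and Nr3c1 fell (-0.60 ± 0.08), as Angptl4 did. The part of these genes in the Angptl4 results was not tested.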

How the data were processed

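Polyadenylated RNA from 100 ng of pooled aortic intima was made into directional libraries. The values deposited by the authors were estimated counts per gene, and log2 values used here only as an alternative. The submitters' processing notes name RSEM 1.2.28, STAR 2.7.10b, cutadapt 4.1, Trim Galore 0.6.10 and an unversioned limma, with GRCm38 as the build. The sources used here give neither the annotation release nor the strand setting.

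Estimated counts were rounded. Genes were kept by edgeR's filterByExpr (minimum count 10, minimum total 15, share 0.7), which left 14269 of 22430 genes, and scaled by TMM (trimmed mean of M-values). The quasi-likelihood test of edgeR 4.0.16 (R 4.3.3) was run in 1 fit of all 14 libraries, with p adjusted by Benjamini-Hochberg and genes called at an adjusted p under 0.05. The standard error is the size of the log2 fold change over the root of F. Levels are given as CPM after TMM scaling, with a prior count of 2 for log2 CPM. Exact permutation tests went through every split of the pools compared, and SciPy 1.17.1 adjusted their p-values. Alternatives were DESeq2 1.42.0, limma 3.58.1 on the deposited log2 values, other scalings, no filter, only the groups compared, a replicate block and each pool left out. Depth was similar in all libraries, and the precision of Angpt2 is limited by 14 to 185 counts a library. Errors in dividing reads between genes are not covered by any p-value. GENCODE M21 matched 22311 of the 22430 identifiers.

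The genes and gene lists were chosen with earlier results of these data known. Named beside the 6 genes were the 3 genes most similar to each, among tested genes whose log2 CPM averaged 2 or more, and up to 4 called genes with the smallest p per list and comparison. Fewer are described, and some are not reported here. The edgeR test was first run on simulated counts for both progerin comparisons, and the remaining steps were not simulated there.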

Additional observations from a re-analysis of the deposited data

Results flagged for a closer look

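The ubiquitous progerin effect minus the VSMC progerin effect passed edgeR's test, with Benjamini-Hochberg adjustment, for each of the 6 genes. On the log2 scale it was -1.07 for Tek, -1.13 for Tie1, 0.49 for Ptprb, -0.60 for Angpt1, 2.20 for Angpt2 and -1.85 for Angptl4. The effects of Tie1 and Angptl4 had opposite signs, each past the test. Angptl4 in lamin C-only pool 4 (40.7 CPM) stood apart from the other 3 pools of its group (27.7 to 29.2 CPM), with a gap on the log2 CPM scale of 0.866 of the group's whole range. Chance gives such a gap in about 1 in 20 groups, and 30 sets of 4 libraries (the 6 genes, their 3 ratios and their 6 levels relative to the endothelial index, in each control group) were examined. The same pool had the highest summed adipocyte markers of its group, 338 CPM against 50.4 to 109 CPM, and the part of that in the Angptl4 value was not tested.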

How the results depend on the processing

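Of the values of the 6 genes under the alternatives, 471 kept their direction and their side of the threshold. The 16 that changed sign all lay in the comparison of the control groups, close to 0. With each pool left out in turn, the log2 difference between lamin C-only and wild-type control ran from -0.033 to 0.030 for Tek, -0.042 to 0.037 for Tie1, -0.055 to 0.035 for Ptprb, -0.098 to 0.11 for Angptl4 and -0.29 to 0.064 for Angpt2. Upper quartile scaling gave 1.56e-05 for Tek and 0.0019 for Ptprb, and no filter gave 0.00057 for Ptprb. Relative to the endothelial index, leaving out pools gave -0.054 to 0.016 for Tek, -0.050 to 0.034 for Tie1, -0.044 to 0.037 for Ptprb, -0.27 to 0.074 for Angpt2 and -0.10 to 0.11 for Angptl4. An index of Pecam1 and Cdh5 only gave 0.0199, 0.0198 and 0.0215 for Tek, Tie1 and Ptprb. The log2 ratio of Tie1 to Tek ran from -0.015 to 0.022 and that of Ptprb to Tek from -0.043 to 0.041. The cause was not tested.

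Over all genes, lamin C-only control had 13 genes higher and 12 lower than wild-type control. Leaving out pools gave 3 to 25 higher and 4 to 20 lower. No filter gave 23 higher, only the groups compared gave 8 higher, and DESeq2 gave 58 higher and 45 lower. Among the 6 genes, 0 to 1 were higher in ubiquitous progerin when a pool was left out. The log2 fold change of Angpt2 there was 0.46 to 0.82 over all alternatives, with adjusted p from 0.0446 to 0.265. The difference of the progerin effects on Angpt1 lost its call in 10 of 20 alternatives.

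Pool numbers did not pair the libraries: deviations of same-numbered pools correlated at -0.05 to 0.02. With the pool number as a replicate block, 19 genes over all were lower in lamin C-only than in wild-type control, and the counts for the 6 genes were as without it, at 0 higher and 5 lower in ubiquitous progerin and 2 higher and 4 lower in VSMC progerin.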
